A study of Mus musculus with 6 samples.

Results

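The relaxin family comprises small peptide hormones and the G protein-coupled receptors that bind them, and 8 of its genes were followed here in the mandibular arch of the mouse embryo: the receptors Rxfp1, Rxfp2, Rxfp3 and Rxfp4 and the ligands Rln1, Rln3, Insl3 and Insl5. A gene was taken where a probe set (the group of array probes that gives 1 value for a gene) was annotated with that gene's symbol alone, and where several were, the one with the highest mean over the 6 arrays was kept. This gave 7 of the 8 genes, each with 1 probe set, out of 19938 genes measured in the same way. Insl3 had no probe set of its own, because the only one carrying its symbol also carries Jak3, the neighbouring kinase gene. The family was selected on the measured difference of Rxfp1 between the genotypes, the largest increase among the genes past the threshold in this same comparison, and each probe set was chosen by its mean level. The Rxfp1 difference is therefore given as a description, with no test, and the other members with the p-values of the fit over all genes.

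RNA came from the mandibular component of pharyngeal arch 1 at embryonic day 9.5 (E9.5), the tissue from which the lower jaw develops, in C57BL/6 embryos. Embryos were either Tbx1+/+ (wild type, 3 arrays) or Tbx1-/- (Tbx1 null, 3 arrays), with no treatment, and Tbx1 is a transcription factor gene of the T-box family that acts in the pharyngeal region. Arches of 3 embryos were pooled by genotype. Neither the form of the null allele nor whether each array had a separate pool is given in the sources used here. The p-values thus rest on a spread between arrays that may be technical in part.

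Relaxin family hormones are made as precursors and cut by prohormone convertases into an A and a B chain held together by disulphide bonds, as insulin is. RXFP1, the relaxin receptor, and RXFP2, the receptor for INSL3, have a large ectodomain of leucine-rich repeats and raise cyclic AMP through stimulatory G proteins. RXFP3 and RXFP4, the receptors for relaxin 3 and INSL5, have short amino-terminal ends and lower cyclic AMP through inhibitory G proteins. Relaxin is known for the loosening of connective tissue and the widening of vessels in pregnancy, and INSL3 for the descent of the testis.

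Since Tbx1 binds DNA through a T-box domain, the promoter windows of the family were searched for the T-box core GGTGTGA on both strands. RefSeq windows (GRCm38.p6, 250 bases before to 50 after a gene's start) were at hand for 7 of the 8 genes, Insl5 having more than 1, and Rxfp1 was not among them. A match stood in 2 of these 8 windows, those of Rln1 and Rxfp4, while 3.98% of 32851 windows of all genes held one. Both stretches are shown because they are the family's only matches in these windows. They lie on the minus strand of the genome, are written 5′ to 3′ along the gene, and carry the core in capitals, beginning 132 bases before the start of Rln1 (chr19:29334774-29334824) and 183 before that of Rxfp4 (chr3:88653297-88653347).
Rln1: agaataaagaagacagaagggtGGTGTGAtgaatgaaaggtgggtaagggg
Rxfp4: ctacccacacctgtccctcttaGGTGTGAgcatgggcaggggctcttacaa
A match of this kind describes the letters of the window and shows neither a binding site nor a cause. The windows of Rxfp2, Rxfp3, Rln3, Insl3 and Insl5 did not hold these letters.

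The 6 arrays were alike over all probe sets, with correlations between arrays of 0.995 to 0.998 and medians of 7.98 to 8.04 on the log2 scale. Precision is limited by the number of arrays, which have no read depth. The median standard error (SE) of a genotype difference was 0.058. Tbx1 was read first as a check of the labels: its levels were 11.64, 11.36 and 11.31 in wild type and 9.48, 9.39 and 9.63 in Tbx1 null, so the genotypes lay far apart (log2 change -1.94, SE 0.10, limma adjusted p = 0.000684). In the comparison of Tbx1 null with wild type, limma called 32 of 19938 genes at an adjusted p under 0.05, which is 0.16% of them, 17 higher (0.0853%) and 15 lower (0.0752%) in Tbx1 null. The Y-linked genes of the sex check differed widely in their mean level between arrays of a genotype, between 8.57 and 9.85 in wild type and between 5.73 and 9.58 in Tbx1 null, a spread too wide for arrays that all carry 1 shared pool per genotype. How far the RNA of these arrays was separate is not given beyond this. The array of low Y-linked level, Tbx1 null replicate 3, was also the array with the highest Rxfp1, and the part of this in the family's values was not tested.

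Rxfp1 (probe set 10498852, Entrez gene 381489) had log2 levels of 8.55, 8.67 and 8.78 on wild-type replicates 1, 2 and 3. On Tbx1 null replicates 1, 2 and 3 the levels were 9.45, 9.49 and 9.66. Every Tbx1 null array lay above every wild-type array, and the lowest of the former stood 0.67 above the highest of the latter. The means were 8.67 ± 0.11 (SD, n = 3) and 9.53 ± 0.11 (SD, n = 3), a log2 difference of 0.87 (SE 0.08, 95% interval 0.69 to 1.04), or 1.82-fold higher in Tbx1 null. Rxfp1 was picked for its increase, so the interval does not allow for that choice and may overstate this difference. The spread within each genotype was small beside this difference, which lay between 0.80 and 0.92 with any 1 array left out. The separation, the small spread and this range follow in part from a choice made on these same arrays and are no separate check. Across all genes, 8.36% had every Tbx1 null array above every wild-type array. The call for which Rxfp1 was chosen was lost when any 1 of these arrays was dropped: Tbx1 null replicates 1 and 2 and wild-type replicate 2. Among increases of all genes measured Rxfp1 ranked 6 by size alone, behind the cardiac actin gene Actc1, Hoxa2, the smooth muscle actin gene Acta2, Gpr50 and Lhx8, whose arrays varied more and which did not pass the threshold. As bulk tissue was measured, more cells that carry the receptor and more transcript per cell cannot be told apart.

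**Figure D1:**
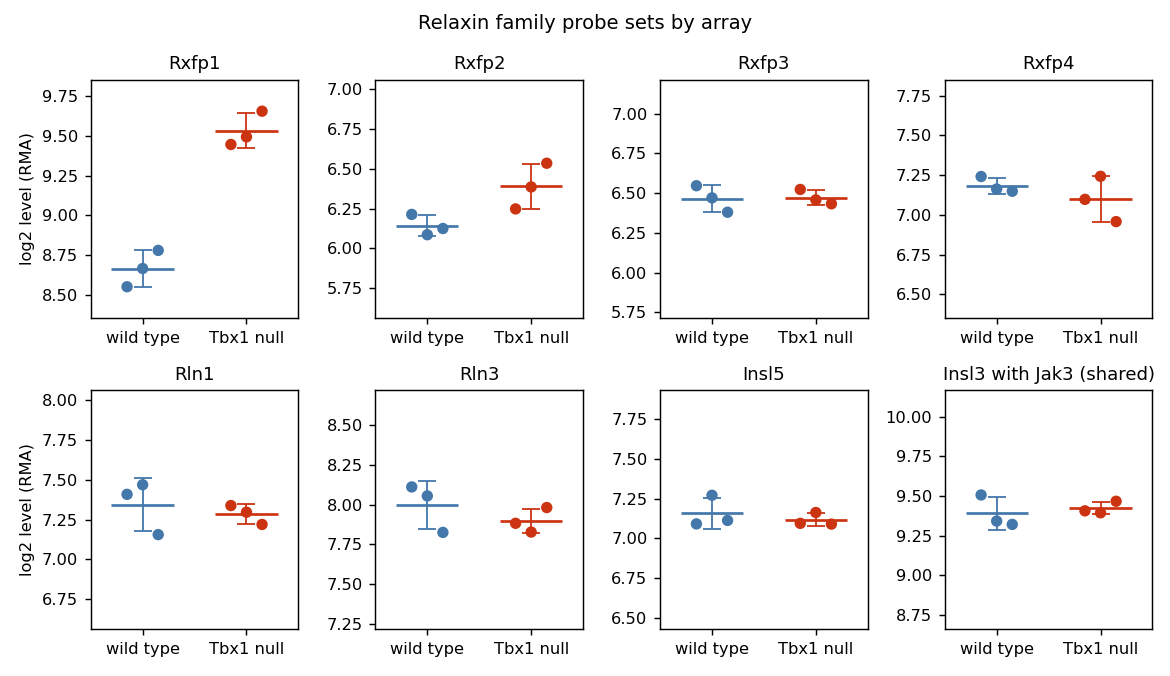
Log2 levels of the 7 measured relaxin family genes and of the probe set shared by Insl3 and Jak3, with 1 point per array, wild type in blue and Tbx1 null in red (3 arrays each); lines are means, bars SDs, and every panel spans the same number of log2 units. Rxfp1 stands apart by genotype with a gap of 0.67, Rxfp2 with a gap of 0.03, and the arrays of the other genes overlap.

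Rxfp2 (probe set 10527713), the INSL3 receptor and the closest relative of Rxfp1 in the family, gave 6.21, 6.09 and 6.12 in wild type. In Tbx1 null it gave 6.25, 6.39 and 6.54. The genotypes did not overlap, but the gap between the nearest arrays was 0.03, less than the spread within either. The log2 change of 0.25 (SE 0.08, 95% interval 0.07 to 0.43) had an unadjusted p of 0.0123 by limma and an adjusted p of 0.350, so it did not pass the threshold. Across all genes, 15.4% had no overlap between the genotypes, 8.36% with Tbx1 null above wild type as here, and 9.44% had an unadjusted p under 0.05. The gene's mean lay below the first quartile of all gene means, 6.81, and whether such a level is above background could not be judged, as no background values were analysed here.

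The receptors of the inhibitory class were closer to 0. Rxfp3 (probe set 10427766), the receptor of relaxin 3 in the brain, gave 6.55, 6.47 and 6.38 in wild type and 6.52, 6.46 and 6.43 in Tbx1 null. Its arrays overlapped throughout, and its log2 change was 0.0056 (95% interval -0.12 to 0.14, limma adjusted p = 0.989). In fold terms the interval ran from 0.918 to 1.098. Like Rxfp2, it lay below the first quartile of gene means. The sign of so small a value is not settled, and it was negative after another quantile normalisation and after centring on array medians (-0.01 and -0.02).

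Rxfp4 (probe set 10499427), the INSL5 receptor, gave 7.24, 7.16 and 7.15 in wild type and 7.10, 7.24 and 6.96 in Tbx1 null. A single Tbx1 null array, replicate 2, reached the top of the wild-type range, and the other two lay below it. The log2 change was -0.08 (95% interval -0.26 to 0.09, limma adjusted p = 0.797).

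No measured ligand passed the threshold. Rln1 (probe set 10466935), the gene of circulating relaxin and the ligand of RXFP1, gave 7.41, 7.47 and 7.16 in wild type and 7.34, 7.30 and 7.22 in Tbx1 null. The Tbx1 null arrays all lay inside the wild-type range. The log2 change was -0.06 (95% interval -0.25 to 0.13, limma adjusted p = 0.886), which is 0.839 to 1.097 as a ratio of Tbx1 null to wild type.

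Rln3 (probe set 10580077), a peptide of brainstem neurons that binds RXFP3 and can also bind RXFP1 and RXFP4, gave 8.11, 8.06 and 7.83 in wild type and 7.88, 7.83 and 7.98 in Tbx1 null. The ranges overlapped, wild type spanning the wider one. The log2 change was -0.10 (95% interval -0.29 to 0.09, limma adjusted p = 0.777).

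Insl5 (probe set 10514708), a gut hormone gene, gave 7.09, 7.27 and 7.11 in wild type and 7.09, 7.16 and 7.09 in Tbx1 null. Apart from the higher wild-type replicate 2, its values almost coincided between genotypes. The log2 change was -0.04 (95% interval -0.18 to 0.09, limma adjusted p = 0.886). The probe set shared by Jak3 and Insl3 gave a log2 change of 0.03 (95% interval -0.12 to 0.18, limma adjusted p = 0.926 over every probe set), and no part of it can be assigned to Insl3.

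Counted over the family, 1 of 7 genes was called, against 0.16% of all genes. Nothing is read from this count, since the called gene is the one for which the family was chosen. Among the other 6 genes limma called 0, with 1 (Rxfp2) at an unadjusted p under 0.05, and 5 had a 95% interval that held 0. Leaving Rxfp2 aside, none of their log2 changes exceeded 0.0998 in size. A p that misses the threshold does not show that a gene's level was equal, and the intervals give the sizes of change these arrays leave possible.

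**Figure D2:**
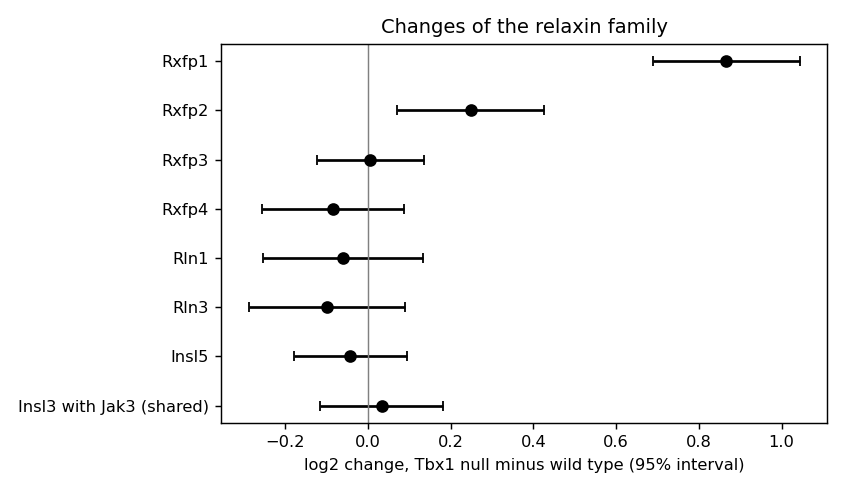
Log2 change (Tbx1 null minus wild type) of each relaxin family gene and of the shared Insl3 and Jak3 probe set, with the 95% interval from limma; the vertical line marks 0. Rxfp1 lies at 0.87, Rxfp2 at 0.25 with an interval from 0.07 to 0.43, and the intervals of all others hold 0. The interval of Rxfp1 does not allow for its having been picked by this change.

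The genes next to Rxfp1 on chromosome 3 in the RefSeq order were not called and had intervals that held 0. Tmem144, a transmembrane protein gene, had log2 levels of 9.32 ± 0.05 (SD, n = 3) and 9.30 ± 0.08 (SD, n = 3), a change of -0.02 (95% interval -0.14 to 0.11, limma adjusted p = 0.9501). On the other side, 4930579G24Rik had a change of -0.02 (95% interval -0.15 to 0.11, limma adjusted p = 0.948). Both intervals end far below the Rxfp1 difference.

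Of the neighbours of the other members, those with a probe set of their own were not called. Both neighbours of Rxfp2 and 1 each of Rxfp4, Rln1, Insl3 and Insl5 had none and are not analysed here. Insl6, a relaxin family ligand gene of the testis beside Rln1 on chromosome 19, had a log2 change of 0.03 (limma adjusted p = 0.957). Adamts12, a metalloprotease gene beside Rxfp3, had a log2 change of 0.20 (adjusted p = 0.615), and Slc45a2, on its other side, one of 0.05 (adjusted p = 0.886). Wdr78 beside Insl5 had a log2 change of 0.23 (adjusted p = 0.763). Khdc4 beside Rxfp4, Il27ra and Rfx1 beside Rln3, and B3gnt3 beside Insl3 had a log2 change of 0.08, 0.01, -0.0035 and 0.0011, with adjusted p-values of 0.634 or more.

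The genes whose values over the 6 arrays were most like those of Rxfp1 were Dok5, Lrrc32, Ppp2r3a, Dok4 and Lypd6, with Pearson correlations of 0.999, 0.998, 0.997, 0.996 and 0.993. These arrays share the genotype difference, so the values are a description. With each genotype's mean removed, the correlations with Rxfp1 over the 6 arrays were 0.975, 0.958, 0.951, 0.898 and 0.983. The genes were picked by their correlation on these same arrays, so high values here follow in part from that choice and are no separate check. Dok5, a gene of an adaptor of receptor tyrosine kinases, gave 11.19, 11.22 and 11.31 in wild type and 11.68, 11.70 and 11.77 in Tbx1 null. As with Rxfp1, replicate 3 was the highest array of each genotype, and the genotypes were apart. Lrrc32, which encodes a cell-surface anchor of latent TGF-beta, gave 8.11, 8.16 and 8.20, then 8.52, 8.51 and 8.62. The changes of Dok5, Lrrc32 and Dok4 (0.48, 0.40 and 0.37) passed the threshold, with limma adjusted p-values of 0.0294, 0.0446 and 0.0422. Lrrc32 and Dok4 did not pass with any 1 array left out (adjusted p from 0.0909 to 0.189 and from 0.0785 to 0.189), and Dok5 passed only without wild-type replicate 3 (0.0398 there, up to 0.166 otherwise). Ppp2r3a, a regulatory subunit gene of protein phosphatase 2A, and Lypd6 had changes of 0.27 and 0.24 that did not (adjusted p = 0.0886 and 0.137).

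**Figure D3:**
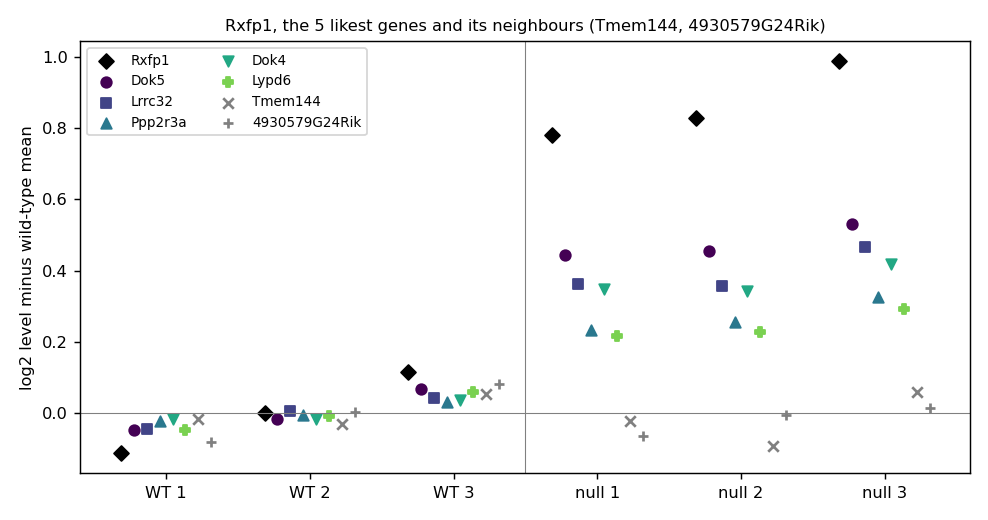
Log2 level minus the gene's wild-type mean on each of the 6 arrays (WT, wild type; null, Tbx1 null) for Rxfp1, the 5 genes most like it and its neighbours Tmem144 and 4930579G24Rik. The 5 genes lie 0.24 to 0.48 above their wild-type means on average over the Tbx1 null arrays, and both neighbours at -0.02.

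Among the members, the correlation with Rxfp1 over the 6 arrays was 0.838 for Rxfp2 and lay between -0.559 and -0.139 for the other 5. With genotype means removed, the values were 0.402 for Rxfp2, -0.0188 for Insl5, -0.339 for Rln3, -0.699 for Rxfp4, -0.749 for Rln1 and -0.915 for Rxfp3. These are descriptions over 6 arrays, and the levels of Rxfp3 spanned 6.38 to 6.55 in all.

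The dissected tissue was checked against 11 marker lists, which held 153 distinct measured genes. Of these 2.61% were called and 40.5% had an unadjusted limma p under 0.05 (35 as higher, 27 as lower), against 0.16% and 9.44% of all genes (1097 as higher, 786 as lower, of 19938). The lists were chosen with earlier results of these data known, so nothing is read from the excess. Crest mesenchyme markers of the mandibular arch were measured for 19 of 21 genes, and their summed level (log2 of the summed linear values) was 15.63 to 15.79 in wild type and 15.81 to 15.90 in Tbx1 null. The log2 values have no zero, so no marker can be called absent. Msx2, a homeobox gene of the distal arch, passed the threshold (log2 change 0.39, limma adjusted p = 0.0422), as did 0 others of this list, where an unadjusted p under 0.05 was reached by 7 as higher and 2 as lower. Msx2 did not pass with any 1 array left out (adjusted p from 0.0865 to 0.205).

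Most heart muscle and heart field markers lay above 0, as Rxfp1 did. Of 28 measured, 23 lay above 0, against 9265 of all 19938 genes. An unadjusted limma p under 0.05 was reached by 15 as higher and 0 as lower. The median log2 change was 0.30, against -0.0061 for all genes, and Tbx20, a T-box gene of the heart (7.77 ± 0.12 to 8.45 ± 0.12, SD, n = 3 each), was the member past the threshold (adjusted p = 0.0422; 0.057 to 0.17 with any 1 array left out). The summed level ran from 13.41 to 13.81 in wild type and from 13.76 to 14.27 in Tbx1 null, so the genotypes overlapped in it. In the mean log2 level of the list they did not, with 8.14 to 8.39 in wild type and 8.41 to 8.76 in Tbx1 null. Wild-type replicate 1 had the highest heart level and the lowest Rxfp1 of its genotype, while the Tbx1 null array highest in Rxfp1, replicate 3, was also the highest in the heart list. The part of heart cells in the Rxfp1 difference was not tested.

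Smooth muscle markers, a class of cell that carries RXFP1 in other organs, gave no call but lay mostly above 0. Of 9 genes 6 lay above 0, against 9265 of all 19938 genes. At an unadjusted p under 0.05 4 were higher, 0 passed the limma threshold, and the median was 0.23. Acta2 (smooth muscle actin) gave 10.65, 10.10 and 9.95 in wild type and 11.23, 11.18 and 11.57 in Tbx1 null, a log2 change of 1.09 with a limma adjusted p of 0.0865. Myocd, the coactivator gene of the smooth and cardiac muscle programme, had a log2 change of 0.62 (adjusted p = 0.0942). Tagln, Cnn1 and Des had log2 changes of 0.47, 0.44 and 0.23. Other members did not rise in this way: Myh11, Smtn, Lmod1 and Mylk had log2 changes of 0.03, -0.0016, -0.03 and -0.10. The summed level of the list was 12.23 to 12.50 in wild type and 12.68 to 12.97 in Tbx1 null, without overlap. This sum leans on the brightest genes, Acta2 (mean 10.24 in wild type and 11.33 in Tbx1 null) and Smtn (10.53 in both). It thus follows Acta2 in large part. The part of smooth muscle cells was not tested.

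Hox genes, which mark tissue behind the mandibular arch, had 11 measured members, of which 0 passed, while 2 as higher and 2 as lower reached an unadjusted limma p under 0.05. Above 0 lay 6 of the 11 (9265 of 19938 over all genes), with log2 changes from -0.14 to 1.11 and a median of 0.01. The 2 higher ones were Hoxa2 and Hoxb2. Hoxa2, a gene of the adjoining arch, gave 6.53, 6.73 and 6.85 in wild type and 8.33, 7.44 and 7.66 in Tbx1 null, and Hoxb2 had a log2 change of 0.63 (adjusted p = 0.126 and 0.0577). The summed level was 10.94 to 11.07 in wild type and 11.18 to 11.26 in Tbx1 null. Its part in the Rxfp1 difference was not tested.

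**Figure D4:**
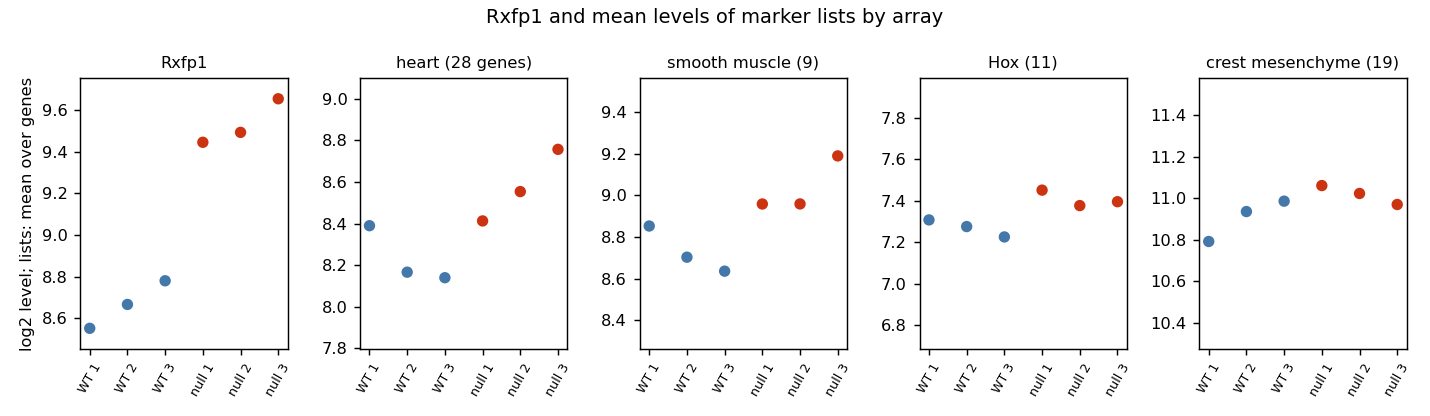
Log2 level of Rxfp1 on each of the 6 arrays (WT, wild type in blue; null, Tbx1 null in red) beside the mean log2 level of the heart, smooth muscle, Hox and crest mesenchyme marker lists; all panels span the same number of log2 units. Rxfp1 separates the genotypes by 0.67. The means of the heart, smooth muscle and Hox lists do not overlap between genotypes, and those of crest mesenchyme do. Wild-type replicate 1, lowest in Rxfp1, is the highest wild-type array in the heart, smooth muscle and Hox lists and the lowest in crest mesenchyme. Tbx1 null replicate 3, highest in Rxfp1, is the highest array in the heart and smooth muscle lists and the lowest Tbx1 null array in crest mesenchyme.

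Among the other marker lists epithelium lay mostly above 0, and the rest lay below 0 or were mixed. Epithelium had 14 of 16 genes above 0, where 9265 of all 19938 genes lay above 0. Its summed level was 14.89 to 15.04 in wild type and 15.07 to 15.18 in Tbx1 null. Primitive erythroid markers had 12 of 12 genes below 0 and 12 at an unadjusted limma p under 0.05, with a median of -0.24, 0 past the threshold and summed levels of 15.15 to 15.18 in wild type and 14.901 to 14.996 in Tbx1 null. Skeletal muscle progenitor markers had 10 of 12 below 0, with Lhx2, the LIM-homeodomain gene of the arch core, called lower (log2 change -1.56, limma adjusted p = 0.000784). Their summed level was 12.06 to 12.21 in wild type and 11.73 to 11.90 in Tbx1 null. Among crest and glial markers the neurotrophin receptor gene Ngfr was called lower (-0.70, adjusted p = 0.0142; not called without wild-type replicate 2 or any 1 of the Tbx1 null arrays, up to 0.133), and the median over 6 was -0.32. Endothelium (median -0.04), macrophages (-0.02), neural tissue (-0.08) and epithelium (0.09) had 0 members past the threshold. At an unadjusted p under 0.05 these had 0, 1, 1 and 5 members higher and 1, 1, 3 and 0 lower. The part of any of these cells in the Rxfp1 difference was not tested.

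Over the 6 arrays, which share the genotype difference, the mean log2 level of each list had these Pearson correlations with Rxfp1, given as a description. They were 0.826 for smooth muscle, 0.818 for Hox genes, 0.8 for heart, 0.731 for epithelium and 0.704 for crest mesenchyme. The lowest values were -0.976 for skeletal muscle progenitors and -0.973 for erythroid cells, and the other 4 lay between -0.671 and -0.271. With genotype means removed, the values were 0.577 for endothelium, 0.355 for crest mesenchyme, 0.344 for epithelium, 0.122 for heart and 0.0682 for smooth muscle. The same measure was -0.184 for neural tissue, -0.207 for erythroid cells, -0.39 for crest and glia, -0.663 for skeletal muscle progenitors, -0.725 for macrophages and -0.748 for Hox genes.

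Genes that work with the family were read from 9 lists of the pathway, which held 146 distinct measured genes. None passed the limma threshold, against 0.16% of all genes. An unadjusted p under 0.05 was reached by 11 as higher and 10 as lower, which is 14.4% of them against 9.44% of all genes. The arrays of the genotypes did not overlap for 25 of the 146, or 17.1%, against 15.4% of all genes. Lack of overlap in a single gene below is thus common. These lists too were chosen with earlier results of these data known. Their median log2 change was 0.01. Genes without a probe set of their own, among them Gnas and Prkaca, are not analysed here.

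The relatives of the family were close to 0. Of 6 measured leucine-rich repeat receptor and Insl6 genes, 5 lay above 0, against 9265 of all 19938 genes, and 0 passed. An unadjusted limma p under 0.05 was reached by 1 as higher and 0 as lower. Lgr6, an R-spondin receptor gene, gave 8.06, 8.13 and 8.09 in wild type and 8.31, 8.33 and 8.12 in Tbx1 null, so 1 Tbx1 null array lay within the wild-type range (log2 change 0.16, adjusted p = 0.484). Lgr5, of the same class, had a log2 change of 0.10 (adjusted p = 0.704). In the insulin and IGF branch 0 of 16 passed, and an unadjusted p under 0.05 was reached by 3 as higher and 4 as lower. Irs2, an adaptor of the insulin and IGF receptors, and Igfbp7, an IGF-binding protein gene, had a log2 change of 0.18 each (adjusted p = 0.212 and 0.238).

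Among 8 enzymes that cut and finish prohormones, 0 passed and 1 was lower at an unadjusted limma p under 0.05, with 0 higher. This was Pcsk6, a proprotein convertase gene, which gave 9.87, 9.66 and 9.69 in wild type and 9.36, 9.44 and 9.62 in Tbx1 null. Its genotypes did not overlap, but the nearest arrays were close (log2 change -0.27, adjusted p = 0.360). Furin, the ubiquitous convertase, had a log2 change of 0.15 (adjusted p = 0.618).

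Downstream of the receptors, G proteins, arrestins and adenylyl cyclases had 0 of 26 genes past the threshold, and an unadjusted limma p under 0.05 was reached by 0 as higher and 1 as lower. Their median was -0.01. The lower one was Gnai1, an inhibitory G protein subunit gene (log2 change -0.15, adjusted p = 0.372), and the adenylyl cyclase gene Adcy4 had a log2 change of 0.11 (adjusted p = 0.530). Of 22 genes of protein kinase A, phosphodiesterases and CREB factors 0 passed, and an unadjusted p under 0.05 was reached by 2 as higher and 0 as lower. Pde3a, a phosphodiesterase gene of heart and vascular muscle that degrades cyclic AMP, had the largest change there. It gave 7.70, 7.37 and 7.54 in wild type and 7.97, 8.09 and 8.37 in Tbx1 null. The genotypes were apart, with a log2 change of 0.61 (SE 0.12, 95% interval 0.34 to 0.87) and an adjusted p of 0.131. Prkar1b, a regulatory subunit gene of protein kinase A, had a log2 change of 0.13 (adjusted p = 0.508).

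Transcripts that cyclic AMP induces had 0 of 11 members past the threshold, and an unadjusted limma p under 0.05 was reached by 0 as higher and 1 as lower. Sik1, a kinase gene that CREB switches on, gave 11.78, 11.73 and 11.69 in wild type and 11.59, 11.59 and 11.62 in Tbx1 null. All Tbx1 null arrays lay below wild type, by a small amount (log2 change -0.13, adjusted p = 0.400). Ppargc1a, a CREB target gene of energy metabolism, had a log2 change of 0.13 (adjusted p = 0.656). The kinases of the PI3K and ERK branches had 0 of 19 past the threshold and 0 at an unadjusted p under 0.05, with Map2k1 and Mapk8 nearest to it (-0.14 and -0.09, adjusted p = 0.560 and 0.618).

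Of 12 nitric oxide and vascular genes 0 passed, and an unadjusted limma p under 0.05 was reached by 1 as higher and 0 as lower. This was Gucy1b1, a subunit gene of the nitric oxide receptor guanylyl cyclase, with levels of 6.35, 6.36 and 6.42 in wild type and 6.67, 6.55 and 6.82 in Tbx1 null. The genotypes were apart (log2 change 0.30, adjusted p = 0.199). Nos1, the neuronal nitric oxide synthase gene, had a log2 change of -0.12 (adjusted p = 0.569).

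Matrix and TGF-beta genes that relaxin is known to act on were mixed. Of 26 measured 0 passed, and an unadjusted limma p under 0.05 was reached by 4 as higher and 3 as lower. Their median was 0.01. Smad7, an inhibitor of TGF-beta and BMP signals, gave 9.42, 9.42 and 9.59 in wild type and 9.78, 9.85 and 9.86 in Tbx1 null. Its genotypes did not overlap (log2 change 0.35, SE 0.06, adjusted p = 0.0845). Acta2, described above with smooth muscle, is also on this list. Without wild-type replicate 1 Acta2 passed the threshold, with a log2 change of 1.3 and an adjusted p of 0.0424. Among the lower genes were Tgfbr2 and Ccn2, with log2 changes of -0.23 and -0.31 (limma adjusted p = 0.141 and 0.177).

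**Figure D5:**
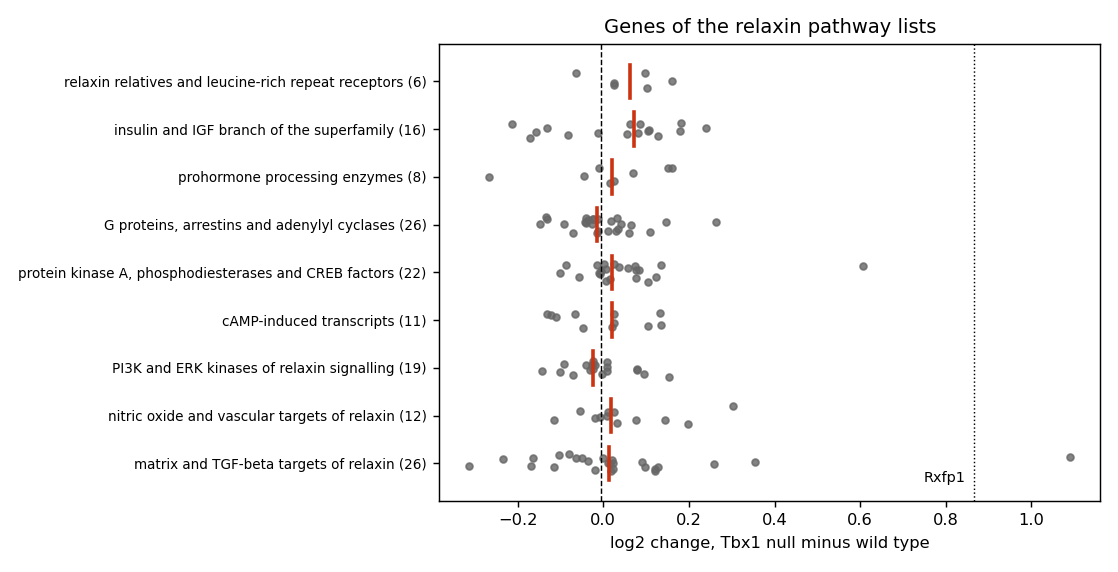
Log2 change (Tbx1 null minus wild type) of each measured gene in the 9 lists of the relaxin pathway, 1 point per gene with the number of genes in brackets; red bars are list medians, the dashed line the median of all genes (-0.0061) and the dotted line Rxfp1 (0.87). List medians lie between -0.02 and 0.07, and the points farthest right are Pde3a (0.61) and Acta2 (1.09).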

How the data were processed

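Total RNA (Qiagen RNeasy Micro kit; 300 ng per labelling, per the labels' protocols) was prepared for Affymetrix Mouse Gene ST 1.0 arrays. Per the submitters' processing notes, the authors used RMA in Affymetrix Expression Console 1.1; the deposited numbers fit a log2 scale, with 1 level per probe set. RMA pulls the arrays' distributions together, so a shift shared by most genes cannot be seen, and dim probe sets understate changes. Of 35556 probe sets 21789 had 1 gene symbol in the platform annotation, 1621 had several and 12146 none. Entrez IDs of 21698 matched RefSeq (GRCm38.p6), which changed 0 symbols.

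The comparison used lmFit and eBayes of limma 3.58.1 (R 4.3.3; two-sided, no covariate) over all 19938 genes, adjusted by Benjamini-Hochberg; the fit was tested on simulated data. Changes are Tbx1 null minus wild type, and folds are 2 to the power of the change. The family, lists and rules were chosen with earlier results of these data known. Named were the members, Tbx1, their RefSeq neighbours, the 5 genes most correlated with Rxfp1 (leaving out predicted, microRNA, small nucleolar RNA and olfactory receptor genes), and list genes that were called or among the 2 of lowest p, some of the latter left unprinted for marker lists. The remaining smooth muscle markers, Tgfbr2 and Ccn2 were named beside these. Alternatives were another quantile normalisation, median centring, a filter at the first quartile of gene means, trended robust eBayes, array weights, averaged probe sets per gene, all probe sets fitted, a replicate block and leaving out each array.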

Additional observations from a re-analysis of the deposited data

How the results depend on the processing

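The Rxfp1 difference was 0.82 after another quantile normalisation, 0.84 after centring and 0.83 with array weights. It ranged from 0.80 to 0.92 when 1 array was left out, where a mean of 3 can shift only by part of its SD. The filter, trended robust eBayes, averaged probe sets, every probe set and the replicate block gave 0.87 again. These cannot move the difference of a gene with 1 probe set in this balanced design, so nothing is read from them. The call for which Rxfp1 was chosen was lost with every probe set tested and without any 1 of wild-type replicate 2 and Tbx1 null replicates 1 and 2; these losses are a description of that choice. No other member passed in any alternative, and the lowest adjusted p was 0.0992, that of Rxfp2 with array weights. Rxfp2 ranged from 0.18 to 0.32 with an array left out, Rxfp3 from -0.037 to 0.046, Rxfp4 from -0.16 to -0.01, Rln1 from -0.15 to 0.0025, Rln3 from -0.19 to -0.04 and Insl5 from -0.076 to 0.014. Signs turned for Rxfp3 after another quantile normalisation (-0.011), after centring (-0.021), without wild-type replicate 3 (-0.037) and without Tbx1 null replicate 1 (-0.020), and for Rln1 (0.0025) and Insl5 (0.014) without wild-type replicate 2. Rxfp2 and Rxfp3 had no value under the filter on dim genes, which removes them.

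The 32 calls over all genes (17 higher, 15 lower) became 96 (57 and 39) with trended robust eBayes, 334 (226 and 108) with array weights and 4 (1 and 3) with every probe set. Another quantile normalisation gave 12 higher and 22 lower, and centring 16 and 30. Leaving out an array gave 3 to 20 calls, with 0 to 12 higher and 3 to 10 lower. Calls in the pathway lists were 1 with trended robust eBayes (Smad7, adjusted p = 0.0487), 6 with array weights (Acta2, Igfbp7, Pde3a and Smad7 higher, Ccn2 and Tgfbr2 lower) and 0 to 1 with an array left out. The 4 calls in the marker lists became 8 with centring, 14 with trended robust eBayes, 27 with array weights, 1 with every probe set and 1 to 3 with an array left out. With the replicate block there were 6 calls (2 higher, 4 lower), 1 of them in the marker lists. The numbers were not taken as pairs: deviations of same-numbered arrays correlated at -0.0453, 0.26 and 0.149, and not every array correlated best with its own number. The causes of these shifts were not tested. Without background values, signal over background could not be judged.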
